A study of Homo sapiens with 7 samples.

Results

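The genes described here are 10 members of the retinoic acid pathway, chosen by name: the receptor genes RARA, RARB, RARG and RXRA, the synthesis genes ALDH1A2 and ALDH1A3, the breakdown genes CYP26A1 and CYP26B1, and the binding protein genes CRABP1 and CRABP2. All 10 are among the 28517 gene entries of the deposited tables, and 7 of them passed the filter on low values, a mean RPKM of at least 0.5. RPKM is the read count divided by the length of the gene entry and by the library total. Any order of genes by RPKM therefore rests on the entry lengths, among the members from 772 bases for CRABP1 to 16762 for RXRA. The series holds 7 poly(A) RNA libraries of NGP cells, a MYCN-amplified line from a human neuroblastoma, grown in serum medium with puromycin in every group. There were 2 libraries each from the control cells, from an ARID1A-/- line labelled 1 and from an ARID1A-/- line labelled 2, and 1 library from ARID1A+/- cells. ARID1A encodes a DNA-binding subunit of the SWI/SNF chromatin remodelling complex. In the control and in each ARID1A-/- line, 1 library was made with a SMARTer kit and the other with a KAPA kit. The ARID1A+/- library was made with the KAPA kit. The labels name no retinoid treatment, and leave unsaid whether a line is 1 clone and whether both libraries of a group had cultures of their own. The p-values therefore describe variation among these libraries, part or all of which could be technical.

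Retinoic acid is made from vitamin A. Retinol is oxidised to retinaldehyde, and aldehyde dehydrogenases of the ALDH1A family oxidise that to retinoic acid. In the cell it is carried by CRABP proteins, destroyed by CYP26 enzymes, and bound in the nucleus by the receptors RARA, RARB and RARG, which act as dimers with an RXR. These dimers sit on direct repeats of a hexamer in the DNA, and RARB and CYP26A1 are textbook target genes. Retinoic acid makes many neuroblastoma cell lines differentiate, and 13-cis retinoic acid is used in treating high-risk neuroblastoma.

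The sequences of RARB and CYP26A1 are shown because they hold the repeat on which the receptors act. RefSeq promoter windows of GRCh38.p14, the 250 bases before each annotated start, were matched for all 10 genes and gave 18 windows. They were searched on both strands for direct repeats of a hexamer, each copy being AGGTCA or its variant AGTTCA, or else its variant GGGTCA or the combined form GGTTCA, spaced by 1, 2 or 5 bases (DR1, DR2 and DR5). A match was found in 2 of the 18 windows, both DR5. Over 35116 windows of all genes, 0.202% held any of the 3 repeats and 0.074% held a DR5. Both matches belong to the textbook target genes that the list was chosen to include, so these shares are a description and no test of the list. Other windows of RARB and CYP26A1 held no match. The CYP26A1 window with the match has 195 of its 250 bases in annotated CYP26A1 exons. The RARB window with the match, at chr3:25428013-25428262 on the plus strand, lies outside the annotated exons. It carries its DR5, in capitals, from 53 to 37 bases before the start.
RARB window: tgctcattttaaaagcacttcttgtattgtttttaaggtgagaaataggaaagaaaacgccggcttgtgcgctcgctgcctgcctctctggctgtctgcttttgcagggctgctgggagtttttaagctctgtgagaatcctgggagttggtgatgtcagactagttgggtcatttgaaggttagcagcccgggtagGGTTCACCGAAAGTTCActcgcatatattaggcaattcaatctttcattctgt
The repeats of both genes are given with 6 bases on each side, with the repeat in capitals, RARB at chr3:25428204-25428232 (plus strand) and CYP26A1 at chr10:93073797-93073825 (minus strand).
RARB site: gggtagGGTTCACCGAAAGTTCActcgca
CYP26A1 site: acaattAGTTCACCCAAAGTTCAtcttta
Counted from 1 at the 5′ end of the repeat, they differed by G1A and G9C, with the RARB base first. No binding was measured in these libraries, and the matches describe the letters only.

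Between 24445301 and 43644361 reads were counted to genes per library. ARID1A itself was at 22.3 and 22.0 RPKM in the control, 16.7 and 17.2 in line 1, 14.2 and 13.8 in line 2, with 19.9 in the ARID1A+/- library (SMARTer library first here and below, where 2 values are given). The fitted log2 difference from the control was -0.38 ± 0.11 (SE) in line 1, which did not pass (adjusted p = 0.066), and -0.70 ± 0.11 in line 2 (adjusted p = 0.0094, edgeR). The line 2 call did not pass without either library of the control or of line 2 (adjusted p from 0.06 to 0.1), nor without the kit term (adjusted p = 0.086). Whether protein remained is not measured by these reads. Of the defining noradrenergic neuroblastoma genes, HAND2 was at 276 to 349 RPKM and MYCN at 606 RPKM or more in all 7 libraries, while TH, tyrosine hydroxylase, was at 0.456 or less. Schwann cell, epithelial and immune marker genes summed to at most 5.45 RPKM per list.

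Among the 7 measured members, the receptor gene RARG and the synthesis gene ALDH1A3 passed the test in at least 1 comparison, and the other 5 passed in none. RARG was higher in line 1 and lower in line 2. ALDH1A3 was lower in the mean of both ARID1A-/- lines and in line 2. Over all 14711 genes tested, 14.2% passed an adjusted p of 0.05 for the mean of both lines against the control, 13% for line 1, 14% for line 2 and 12.8% for line 1 against line 2. The members that passed were 1 of 7, 1 of 7, 2 of 7 and 1 of 7 in the same order. By direction, 4.64% of genes rose and 9.57% fell in the mean of both lines, 4.75% rose and 8.27% fell in line 1, 5.47% rose and 8.52% fell in line 2, and 5.71% were higher and 7.1% lower in line 1 than in line 2. The share of members that passed is therefore near the background in 3 of the 4 comparisons, and line 2 has 1 call more. The median log2 difference of the 7 members was -0.16, 0.20, -0.48 and 0.82, beside 0.02, 0.01, 0.02 and 0.00 over all genes tested. Both comparisons with the control use the same 2 control libraries.

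**Figure D1:**
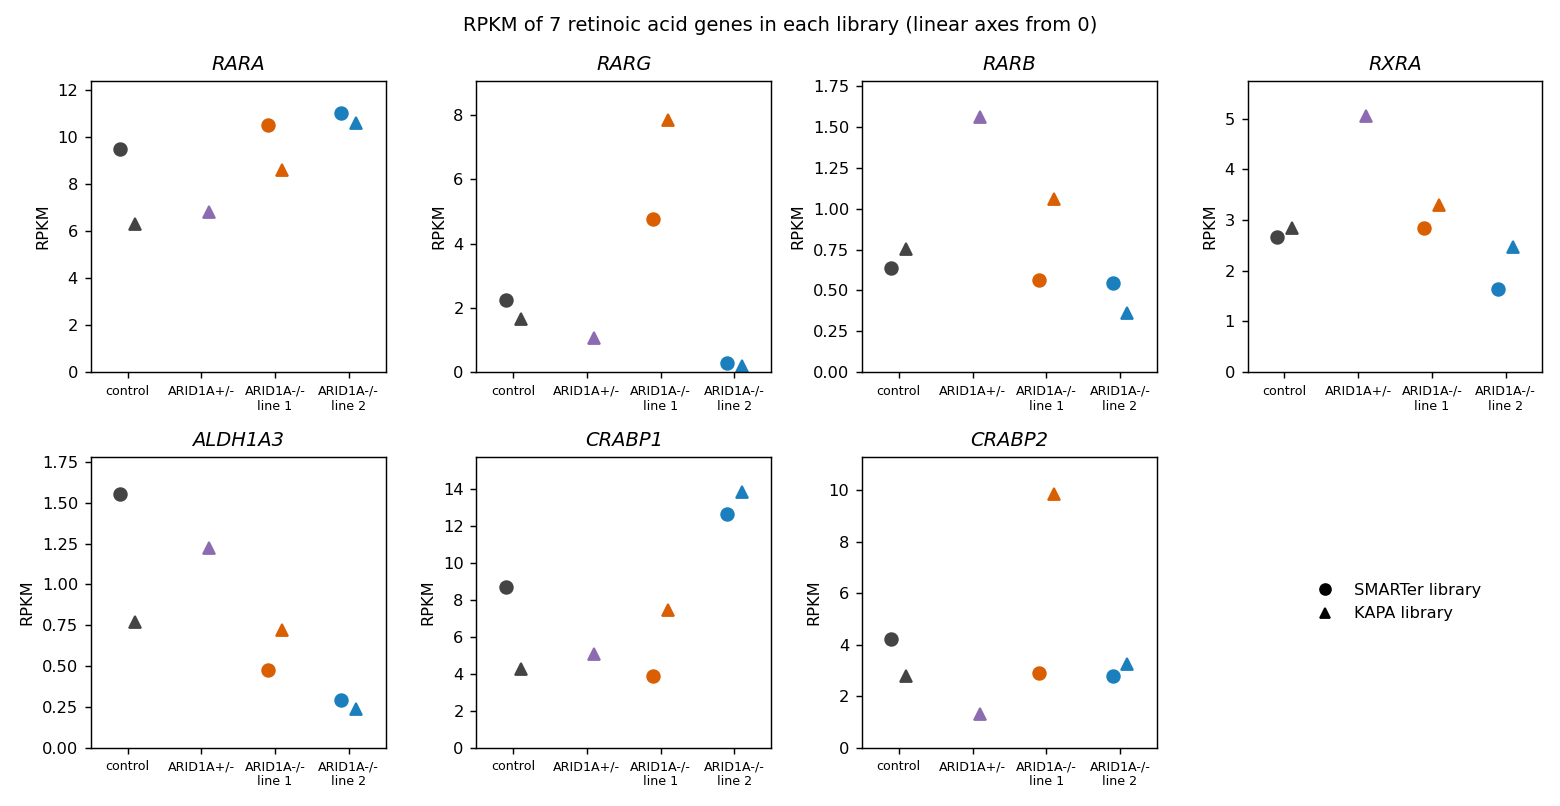
RPKM (linear axes from 0) of the 7 measured members in each of the 7 libraries, by group, with circles for SMARTer and triangles for KAPA libraries. RARG sits at 4.75 and 7.86 in line 1, at 2.25 and 1.65 in the control and at 0.291 and 0.187 in line 2, and ALDH1A3 sits lower in the 4 ARID1A-/- libraries than in both control libraries.

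RARG encodes the retinoic acid receptor gamma. It was at 2.25 and 1.65 RPKM in the control, 4.75 and 7.86 in line 1, 0.291 and 0.187 in line 2, with 1.07 in the ARID1A+/- library. The 3 groups with 2 libraries did not overlap in any pair, a separation also seen for 41.8% of genes between line 1 and control, 45.6% between line 2 and control and 41.9% between the lines. The counts behind the values were 365 and 150 in the control, 730 and 929 in line 1, and 44 and 20 in line 2. RARG was 3.21-fold higher in line 1 than in the control (log2 difference 1.68 ± 0.32, adjusted p = 0.019). It was 8.29-fold lower in line 2 (-3.05 ± 0.37, adjusted p = 0.0036). The difference between the lines was itself tested and came to 26.6-fold (4.73 ± 0.38, adjusted p = 0.0013). Within the SMARTer libraries line 1 was 2.11-fold and within the KAPA libraries 4.75-fold above the control, and line 2 was 7.74-fold and 8.86-fold below it.

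The lines went opposite ways, and the mean of both against the control did not pass for RARG (-0.68 ± 0.28, adjusted p = 0.16), though it did without the KAPA library of line 1 (-0.997, adjusted p = 0.0078). The line 1 call rested on the kit term and on both control libraries: it did not pass without the term (1.65, adjusted p = 0.069), without the SMARTer control (2.00, adjusted p = 0.09) or without the KAPA control (1.34, adjusted p = 0.16). The line 2 call did not pass without the SMARTer control (-2.69, adjusted p = 0.052). The difference between the lines passed in each of the 15 alternatives, at log2 differences from 2.53 to 5.31. In the control and the ARID1A-/- lines, the sums of 7 fibroblast marker genes ran in the same order as RARG, at 81.6 to 82.0 RPKM in the control, 198 to 222 in line 1 and 43.2 to 48.2 in line 2. The ARID1A+/- library was out of that order, with a sum of 85.8, above both control libraries, and RARG below both. Of the 6 measured fibroblast genes, 3 were higher in line 1 than in line 2 and the other 3 did not pass. Against the control, 4 of the 6 were higher and 0 lower in line 1. In line 2, 2 were higher and 2 lower than in the control, so single genes did not all keep the order of the sums. COL1A1 made up much of these sums (17.1 to 171 RPKM). PDGFRA was at 6.83 to 32.7 RPKM over the 7 libraries, LUM at 1.72 to 17.3 and PDGFRB at 1.75 to 14.0. COL3A1 was at 1.27 to 7.80 and DCN at 0.0326 to 4.44. COL1A2, which encodes the second chain of the same collagen as COL1A1, was at 0.0336 RPKM or less in all 7 libraries. Among all tested genes, 4.75% were called higher for line 1 against the control and 5.71% for line 1 against line 2. For line 2 against the control, the shares were 5.47% higher and 8.52% lower.

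RARA encodes the receptor alpha and was the most abundant receptor gene of the family in every library. It was at 9.47 and 6.31 RPKM in the control, 10.5 and 8.60 in line 1, 11.0 and 10.6 in line 2, with 6.81 in the ARID1A+/- library. Line 2 lay above both control libraries and line 1 overlapped them. The log2 difference was 0.29 ± 0.17 in line 1 (adjusted p = 0.29) and 0.44 ± 0.17 in line 2 (adjusted p = 0.13), and neither passed.

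RARB encodes the receptor beta, whose gene is itself a target of the receptors. It was at 0.638 and 0.751 RPKM in the control, 0.565 and 1.06 in line 1, 0.546 and 0.359 in line 2, with 1.56 in the ARID1A+/- library. Line 1 spanned the control values and line 2 lay below them. Neither the log2 difference of 0.20 in line 1 (adjusted p = 0.76) nor that of -0.62 ± 0.38 in line 2 (adjusted p = 0.32) passed. Exons of RARB overlap those of TOP2B on the opposite strand, a gene at 66.3 to 114 RPKM. No source used here says whether counting used strand, so reads where the exons overlap may come from either gene. Exons of RARA, ALDH1A2, ALDH1A3, CRABP1 and CYP26A1 also overlap those of other annotated genes.

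RXRA, the measured RXR partner of these receptors, was at 2.66 and 2.85 RPKM in the control, 2.84 and 3.30 in line 1, 1.64 and 2.47 in line 2, with 5.05 in the ARID1A+/- library. The lines did not overlap each other, with line 1 above line 2. The difference between them just missed the threshold (0.64 ± 0.17, adjusted p = 0.055), and passed with DESeq2 (adjusted p = 0.013), without a filter on low values (adjusted p = 0.032) and without the KAPA library of line 1 (adjusted p = 0.039). Against the control the log2 difference was 0.16 in line 1 (adjusted p = 0.58) and -0.48 ± 0.17 in line 2 (adjusted p = 0.11). The latter passed without the SMARTer (adjusted p = 0.044) or the KAPA library of line 1 (adjusted p = 0.048).

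The makeup of the RAR family differed with RARG. RARG made up 18.2% and 19.0% of the summed RPKM of the 3 RAR genes in the control, 30.0% and 44.9% in line 1, 2.46% and 1.68% in line 2, with 11.3% in the ARID1A+/- library. RARA made up 76.6% and 72.4%, 66.4% and 49.1%, 92.9% and 95.1%, and 72.1% in the same order. The sum itself was 12.4 and 8.71 RPKM in the control, 15.8 and 17.5 in line 1, 11.9 and 11.1 in line 2, with 9.44 in the ARID1A+/- library. Line 2 thus kept a sum within the control's range while RARG fell to the smallest share.

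**Figure D2:**
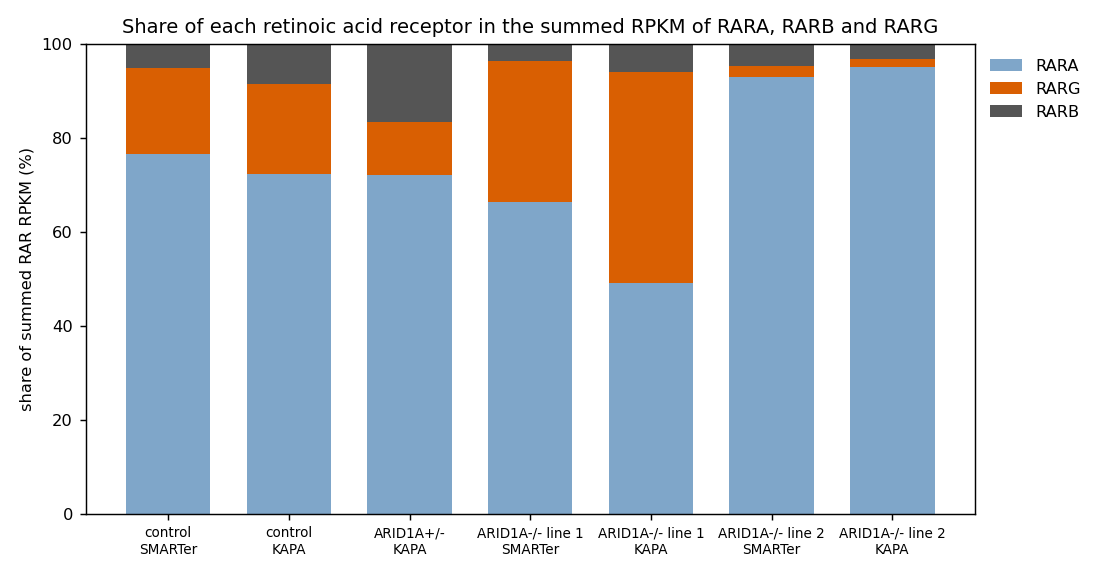
Share in percent of RARA, RARG and RARB in the summed RPKM of the 3 genes, 1 stacked bar per library. The RARG share is 30.0% and 44.9% in line 1 and 2.46% and 1.68% in line 2, against 18.2% and 19.0% in the control.

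ALDH1A3 encodes a retinaldehyde dehydrogenase that makes retinoic acid. It was at 1.55 and 0.773 RPKM in the control, 0.477 and 0.718 in line 1, 0.295 and 0.238 in line 2, with 1.22 in the ARID1A+/- library. All 4 ARID1A-/- libraries lay below both control libraries, as they did for 11.6% of all genes tested, but the KAPA library of line 1 was close to the KAPA control. ALDH1A3 was 2.90-fold lower in the mean of both lines than in the control (-1.54 ± 0.34, adjusted p = 0.031) and 4.43-fold lower in line 2 (-2.15 ± 0.42, adjusted p = 0.022). Line 1 alone did not pass (-0.93 ± 0.40, adjusted p = 0.18), nor did the difference between the lines (1.22 ± 0.43, adjusted p = 0.12). Both turned on the line 1 libraries. Without its KAPA library, line 1 passed against the control (-1.55, adjusted p = 0.023), and without its SMARTer library the lines differed (1.83, adjusted p = 0.017). The line 1 difference was -0.29 without the SMARTer library of line 1, -0.31 without the SMARTer control and -1.49 without the KAPA control, and that between the lines was 0.58 without the KAPA library of line 1.

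The ALDH1A3 calls rested on the SMARTer control and were close to the threshold. Without that library the differences were -0.89 for both lines (adjusted p = 0.36) and -1.47 for line 2 (adjusted p = 0.19). Without the kit term the adjusted p-values were 0.088 and 0.075, and with limma on log2(RPKM + 1) they were 0.088 and 0.066. Without the SMARTer or the KAPA library of line 2 they were 0.063 and 0.062 for both lines, and 0.093 and 0.1 for line 2.

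ALDH1A2, the embryonic retinaldehyde dehydrogenase, was nearly silent. Its counts were 10 and 1 in the control and 0 in the other 5 libraries. With the 0 counts of both lines set to a floor of 3, it was 7.85-fold lower in the ARID1A-/- lines than in the control by summed counts. That value depends on the floor and is no lower bound. The exact 95% interval, which also takes in the counting error of the control, reaches down to 5.37-fold, and 10 of the 11 control counts are from the SMARTer library. Fitted without the filter, the gene did not pass (adjusted p = 0.081).

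CYP26A1 and CYP26B1 encode the enzymes that break retinoic acid down, and both were at a few counts per library. CYP26A1 had 18 and 2 counts in the control, 0 and 0 in line 1, 6 and 3 in line 2, with 1 in the ARID1A+/- library. With the 0 counts of line 1 set to a floor of 3, it was 7.21-fold lower there than in the control by summed counts. The exact 95% interval reaches down to 5.34-fold. In line 2, CYP26A1 was 2.35-fold lower (95% interval 1.02 to 5.87, counting error only). CYP26B1 had 12 and 0 counts in the control, 1 and 2 in line 1, 2 and 3 in line 2, with 6 in the ARID1A+/- library. Of the 20 control counts of CYP26A1, 18 came from the SMARTer library. The control counts of CYP26B1 all came from the SMARTer library, so the KAPA control alone was below every ARID1A-/- library. Neither gene passed when fitted without the filter (adjusted p = 0.073 for CYP26A1 and 0.53 for CYP26B1 in the mean of both lines, and 0.05, at the threshold, for CYP26A1 in line 1).

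**Figure D3:**
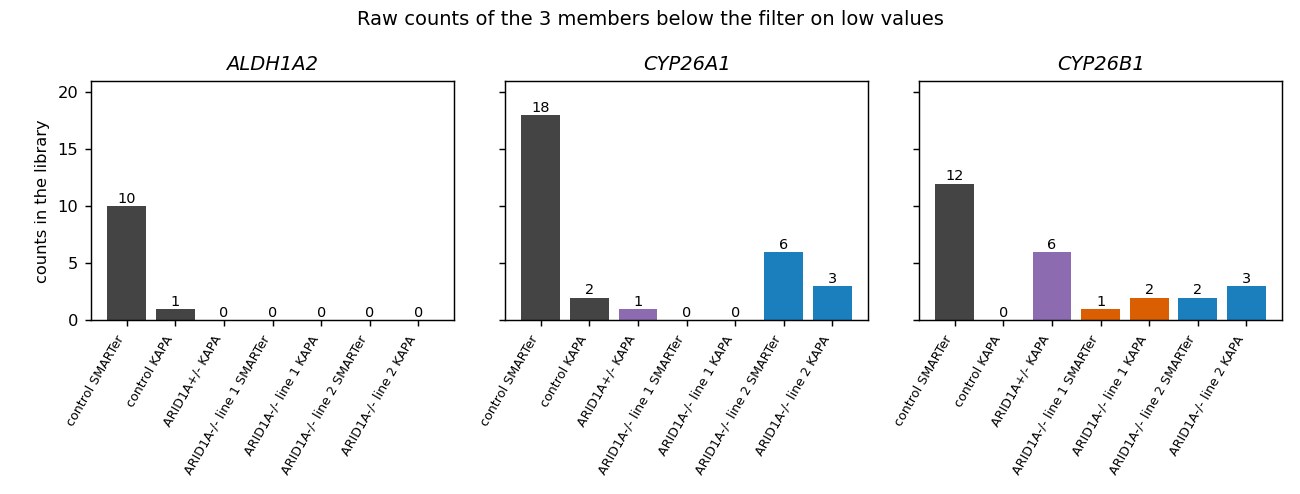
Raw counts (bars from 0, value printed above) of ALDH1A2, CYP26A1 and CYP26B1 in each library, 1 bar per library. The SMARTer control holds the highest count of each gene, 10, 18 and 12, and the KAPA control holds 1, 2 and 0.

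CRABP1 and CRABP2 encode the cellular retinoic acid binding proteins, CRABP2 being the one that delivers the ligand to the receptors. CRABP1 was at 8.67 and 4.24 RPKM in the control, 3.88 and 7.44 in line 1, 12.7 and 13.8 in line 2, with 5.06 in the ARID1A+/- library. Line 2 lay above all the other libraries, and line 1 overlapped the control. The log2 difference of line 2 from the control was 0.97 ± 0.43 (adjusted p = 0.18) and that of line 1 from line 2 was -1.20 ± 0.43 (adjusted p = 0.12), so neither passed. The line 2 difference passed without the SMARTer (1.05, adjusted p = 0.025) or the KAPA library of line 1 (1.05, adjusted p = 0.027), and came to 1.85 without the SMARTer control (adjusted p = 0.098) and 0.31 without the KAPA control (adjusted p = 0.7). The difference between the lines passed without the KAPA library of line 1 (-1.92, adjusted p = 0.013) and was -0.64 without its SMARTer library (adjusted p = 0.34).

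CRABP2 was at 4.21 and 2.78 RPKM in the control, 2.91 and 9.84 in line 1, 2.78 and 3.24 in line 2, with 1.33 in the ARID1A+/- library. The KAPA library of line 1 stood apart, 3.39-fold above the SMARTer library of the same line. No comparison of CRABP2 passed, with adjusted p-values of 0.43 for line 1, 0.72 for line 2 and 0.26 between the lines. Without the SMARTer library of line 1, CRABP2 passed in line 1 (1.56, adjusted p = 0.019) and between the lines (1.81, adjusted p = 0.0067), with its KAPA library standing alone for the line.

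**Figure D4:**
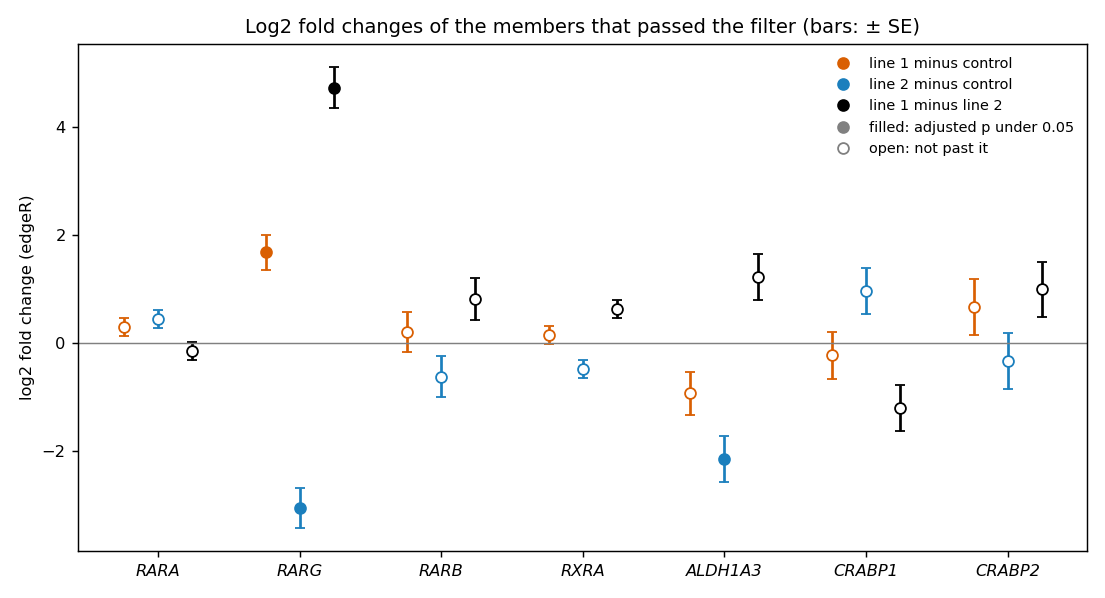
Log2 differences with their standard errors (edgeR, kit in the model) of the 7 measured members for line 1 minus control, line 2 minus control and line 1 minus line 2, filled where the adjusted p was under 0.05. Filled points are RARG in all 3 comparisons (1.68, -3.05 and 4.73) and ALDH1A3 in line 2 (-2.15).

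Ordered by RPKM within a library, RARA was the highest member in both control libraries, the SMARTer library of line 1 and the ARID1A+/- library. CRABP1 was the highest in both line 2 libraries and CRABP2 in the KAPA library of line 1. RARG ranked 5 of 10 in both control libraries, 2 and 3 in line 1, and 7 in both line 2 libraries and the ARID1A+/- library. In the control, RARA and CRABP1 (9.47 and 8.67 RPKM in the SMARTer library) differed by less than either gene differed between kits, and so did CRABP2 and RXRA (2.78 and 2.85 in the KAPA library). ALDH1A2, CYP26A1 and CYP26B1 held the last 3 places in each library.

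The ARID1A+/- genotype had 1 library, so it was set beside the KAPA control with counting intervals and no test. RARB was 2.16-fold higher (95% interval 1.61 to 2.93) and RXRA 1.84-fold higher (1.72 to 1.98), and both were above all 6 other libraries. ALDH1A3 was 1.64-fold higher (1.22 to 2.24), where line 2 was lower. Its 1.22 RPKM lay between the KAPA control (0.773) and the SMARTer control (1.55), so this holds against the KAPA control only. RARG stood at 0.672 of the control (0.527 to 0.855), between the control and line 2. CRABP2 was 2.01-fold lower (1.40 to 2.92) and below all 6 other libraries. More than 2-fold differences in this pair of libraries were seen for 4.43% of tested genes higher and 5.88% lower, and 15% of genes were above and 14.5% below all other libraries. Against these shares, 2 of 7 members were above all others and 1 of 7 was below.

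The wider pathway was described with a list of 83 retinoid genes, the members included, of which 82 had an entry and 45 were measured. In the mean of both lines, 4 of the 45 rose and 7 fell. In line 1, 6 rose and 7 fell, and in line 2, 4 rose and 9 fell. Between the lines, 5 were higher and 6 lower in line 1. The share of all tested genes that passed was 14.2%, 13%, 14% and 12.8% in these comparisons. The list was chosen with earlier results of these data known, so its larger share of calls is a description. The median log2 differences were 0.14, 0.16, 0.17 and 0.03 in that order. Of 43 calls on 17 genes that are not members, 13 calls on 8 genes passed under every alternative, in at least 1 comparison each of BHLHE40, MEIS1, MEIS2, NAV2, NEDD9, PPARD, PRAME and RAI14.

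In the uptake and storage group, 3 of 13 genes were measured. STRA6, the receptor that takes retinol into cells, fell in line 2 (0.651 and 0.819 RPKM against 3.14 and 1.48, log2 difference -1.62 ± 0.35, adjusted p = 0.028). That call did not pass without the SMARTer control (-1.05, adjusted p = 0.19) or the SMARTer library of line 2 (-1.10, adjusted p = 0.11).

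Among 7 measured enzymes that interconvert retinol and retinaldehyde, RDH10, which makes retinaldehyde for retinoic acid synthesis, fell in line 1. It was at 0.876 and 1.27 RPKM there against 2.72 and 3.13 in the control and 3.14 and 2.94 in line 2 (-1.46 ± 0.22 against the control, adjusted p = 0.0083, which came to 0.089 and 0.076 without the SMARTer or the KAPA control). Line 1 was also below line 2 (-1.48, adjusted p = 0.0082), a call that did not pass without the SMARTer library of line 2 (-1.27, adjusted p = 0.052). DHRS4 rose in the mean of both lines (1.14 ± 0.26, adjusted p = 0.034), and did not pass without the SMARTer control (adjusted p = 0.19), the KAPA control (0.25) or the KAPA library of line 2 (0.099). STRA6 in line 2 and DHRS4 in both lines also did not pass without the kit term (adjusted p = 0.1 and 0.11) or with limma on log2(RPKM + 1) (0.055 and 0.053).

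Among receptors outside the members, PPARD, a fatty acid receptor that has been reported to bind retinoic acid, rose in line 2 to 14.8 and 11.8 RPKM from 2.63 and 4.23 in the control (1.92 ± 0.27, adjusted p = 0.0069). Line 1, at 4.34 and 3.27, overlapped the control. All 16 coregulator genes were measured, and 2 of them fell in the mean of both lines, as did 9.57% of all tested genes. PRAME, a melanoma antigen that represses RAR signalling, was at 20.0 and 32.8 RPKM in the control, 1.53 and 1.72 in line 1 and 1.14 and 0.262 in line 2 (-4.65 ± 0.43, adjusted p = 0.0012). The ARID1A+/- library, at 3.60, was also below both control libraries. ZNF423, a zinc finger protein that acts with RAR and RXR, was at 7.10 and 6.12 RPKM in the control, 1.88 and 2.17 in line 1 and 2.93 and 4.31 in line 2 (-1.32 ± 0.18, adjusted p = 0.0056). Its call did not pass without the SMARTer control (-1.03, adjusted p = 0.11).

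Of 28 genes listed as responsive to retinoic acid, 15 were measured, and they moved in both directions. In the mean of both lines 2 rose and 3 fell, and in line 2 alone 3 rose and 5 fell, where 14.2% and 14% of all tested genes passed. RAI14, named for its induction by retinoic acid, was at 1.88 and 2.44 RPKM in the control, 0.0577 and 0.166 in line 1, and 0.0377 and 0.0887 in line 2 (-4.81 ± 0.29, adjusted p = 0.00024). It stayed at 2.54 in the ARID1A+/- library. NAV2, which guides neurite growth, fell in line 2 (0.447 and 0.379 RPKM against 3.52 and 2.32 in the control, -2.84 ± 0.17, adjusted p = 0.00042). MEIS2, a homeobox factor, was at 98.2 and 97.7 RPKM in line 2 against 49.6 and 42.7 in the control (1.05 ± 0.13, adjusted p = 0.0034). NEDD9, a scaffold protein, rose in line 2 from 0.166 and 0.0920 to 0.799 and 1.41 RPKM (2.95 ± 0.43, adjusted p = 0.0075). In line 1, MEIS2 (0.55, adjusted p = 0.034, edgeR) and NEDD9 (1.79, adjusted p = 0.042, edgeR) rose as well. Those line 1 calls did not pass in 5 alternatives for MEIS2 and 6 for NEDD9. The RNA levels of these genes do not measure retinoic acid itself.

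**Figure D5:**
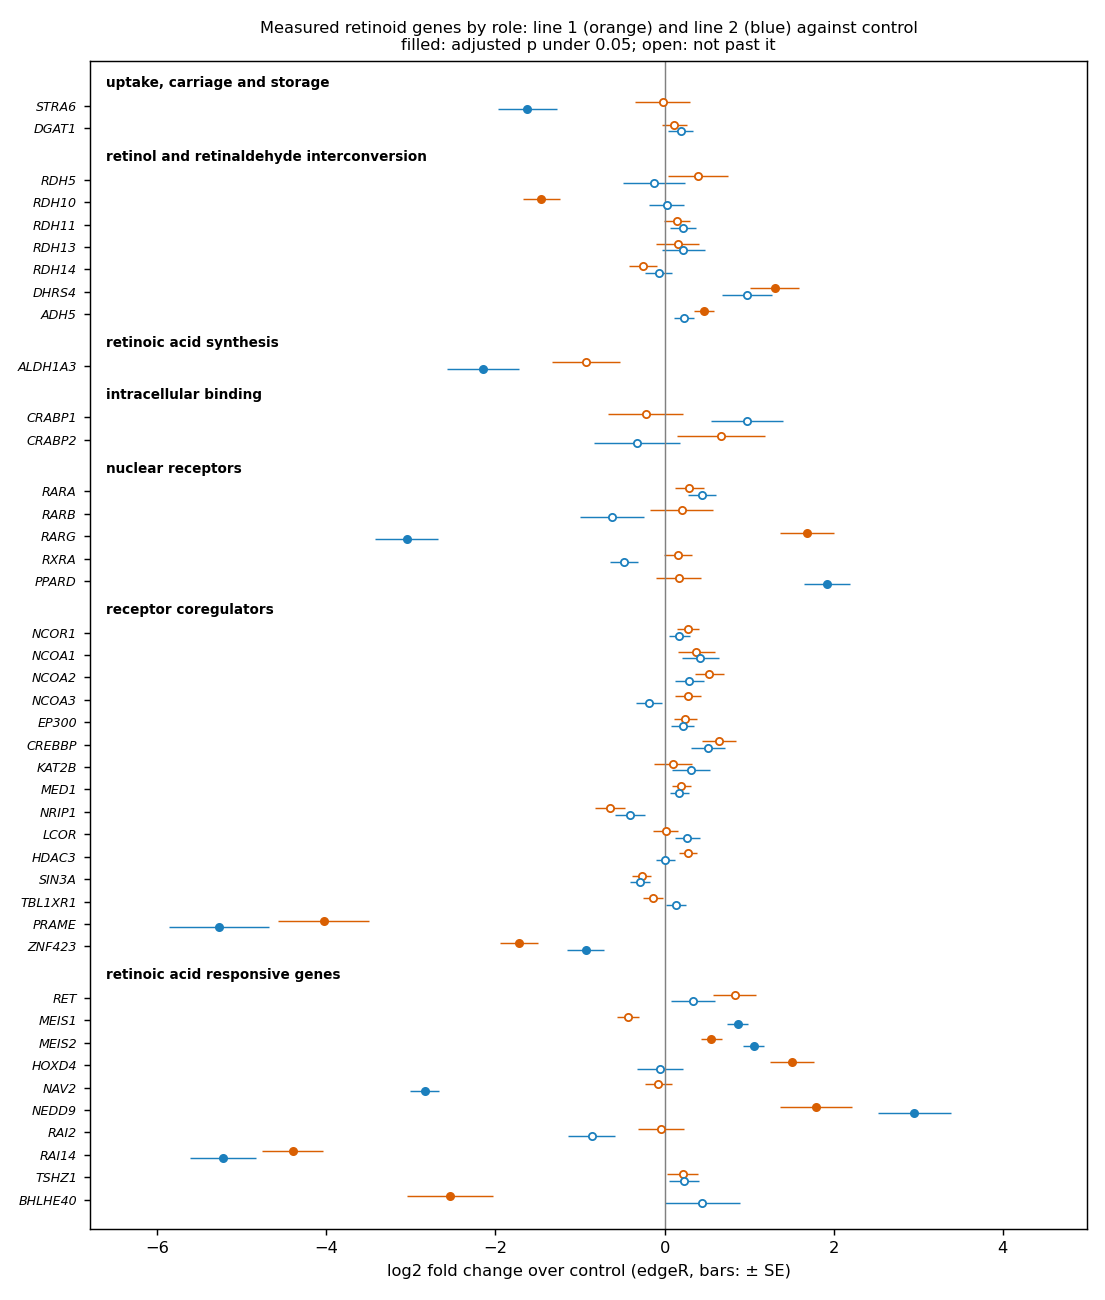
Log2 difference from the control with its standard error (edgeR) of 42 measured retinoid genes, by role, line 1 in orange and line 2 in blue, filled where the adjusted p was under 0.05. RARG lies on opposite sides of 0 in the lines, while PRAME and RAI14 lie far to the left in both.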

How the data were processed

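Poly(A) RNA of NGP cells was sequenced in 7 libraries as 75-base single-end reads, per the labels' protocols. The authors deposited, per library, a read count per gene entry, the entry's length and an RPKM value. HISAT2 2.1.0 and the build hg19 are named by the submitters' processing notes, and the sources used here do not give the counting program, annotation or strand setting. The deposited RPKM equals count over length and total to within 0.000501%. Control, line 1 and line 2 (2 libraries each) were fitted together with edgeR 4.0.16 (R 4.3.3) by the quasi-likelihood test on the deposited counts, with TMM scaling, genes of mean RPKM at least 0.5, and group and kit as terms (2 residual degrees of freedom). P-values were Benjamini-Hochberg adjusted over 14711 genes, with a threshold of 0.05, and a standard error is the log2 difference over the root of F. The replicate number is the kit, a batch that the labels name, and deviations of same-kit libraries correlated at 0.51, 0.63 and 0.45, so it was kept as the pairing block. Libraries of a group differed far beyond counting noise (chi-square per gene 145.1 to 190.2). Intervals are exact 95% binomial intervals on the raw counts, with limits rescaled by TMM-adjusted library totals, and cover counting error only. The test was checked on simulated data. Alternatives were DESeq2 1.42.0, limma 3.58.1 on log2(RPKM + 1) and log2(RPKM + 0.1), other scalings, filters, no kit term, and each library left out. The genes named were the 10 members, ARID1A and any listed retinoid gene called in a comparison. Counts over the list include 3 genes whose results are not reported here. Members and lists were chosen with earlier results of these data known.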

Additional observations from a re-analysis of the deposited data

Results flagged for a closer look

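The lines differed from each other, by a test of the difference itself (line 1 minus line 2, log2, edgeR with adjustment over all genes), in the 9 retinoid genes given here. Of the 45 measured genes of the wider list, 11 passed in this comparison, some of them not reported here. Over all tested genes, 12.8% passed. The list was chosen with earlier results of these data known, so its count is a description. RARG differed by 4.73 and the receptor PPARD by -1.76. In uptake and oxidation of retinol, STRA6 differed by 1.60 and RDH10 by -1.48. Among the responsive genes, BHLHE40 differed by -2.99, HOXD4 by 1.56, MEIS1 by -1.30, MEIS2 by -0.50 and NAV2 by 2.76. Of these, RARG, BHLHE40, MEIS1 and NAV2 passed under every alternative. The MEIS2 call ended in 7 of 15 alternatives: without the kit term (adjusted p = 0.29) and without each of the 6 libraries in turn (0.052 to 0.34). HOXD4 did not pass without the kit term (0.093) or without the SMARTer (0.058) or KAPA library of line 2 (0.097). STRA6 did not pass without the kit term (0.12), with limma on log2(RPKM + 1) (0.059) or without the SMARTer library of line 2 (1.12, 0.11), without which RDH10 (0.052) and PPARD (0.055) did not pass either. Both lines carry the label ARID1A-/-, and what else separates them was not tested.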

How the results depend on the processing

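With 2 libraries a group and 2 residual degrees of freedom, counts of calls moved with the library left out and with the kit term. Without the kit term (no replicate block for the pairing by kit), the genes called over the whole table were 592, 475, 519 and 404 for both lines, line 1, line 2 and line 1 against line 2, in place of 2090, 1916, 2059 and 1885. The members called were then 0, 0 and 1 in the first 3 comparisons, and of the wider list 6, 4, 8 and 6. The pairing changed no other call of a member than those of RARG and ALDH1A3 printed above. DESeq2 and the fit without a filter called 2 members between the lines, and without a filter 3147 genes in all were called for both lines and 17 of the wider list between the lines. With limma, at either pseudocount, 0 members were called for both lines and 1 for line 2, and at a pseudocount of 1 the wider list had 7 calls for both lines and 8 for line 1. At a mean RPKM of at least 2, which tests fewer genes, 0 members were called for both lines and 1 for line 2, 1234 genes in all for line 1, and 6, 7 and 8 of the wider list for both lines, line 1 and line 2. With each library left out in turn, the calls over the table ranged from 348 to 3570 for both lines, 436 to 3028 for line 1, 408 to 3738 for line 2 and 772 to 2407 between the lines. The members called ranged from 0 to 2, 0 to 2, 0 to 4 and 1 to 3, and the wider list from 4 to 18, 2 to 16, 6 to 17 and 7 to 13. Some differences that did not pass changed sign: CRABP1 ranged from -0.94 to 0.60 in line 1 and -0.31 to 1.23 in both lines, CRABP2 from -0.32 to 1.56 in line 1, -0.998 to 0.60 in line 2, -0.56 to 1.05 in both lines and -0.074 to 1.81 between the lines, RARB from -0.33 to 0.67 in line 1 and -0.55 to 0.015 in both lines, and RARA from -0.35 to 0.090 between the lines. RARG in both lines came to 0.017 with limma on log2(RPKM + 1). The cause was not tested. Counts under 20 per library in ALDH1A2, CYP26A1 and CYP26B1 limit what those genes can show.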

Other observations

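In the ARID1A+/- library, 3 wider retinoid genes, picked from the list, differed from the KAPA control in directions not shared with both ARID1A-/- lines. STRA6 was 4.39-fold higher (95% interval 3.81 to 5.08, counting error only). ZNF423 was 1.74-fold higher (1.60 to 1.90), and MEIS2 was 1.86-fold lower (1.78 to 1.94). These latter differences were under 2-fold, and other genes of the list lay further from the KAPA control. Among all tested genes, 4.43% were more than 2-fold higher and 5.88% more than 2-fold lower in this pair of libraries. Of the 8 measured genes nearest to RARG in RefSeq order, SP7, a bone transcription factor chosen here after its values were seen, passed in all 4 comparisons. It was lower in line 1 (-1.08, adjusted p = 0.037) and in line 2 (-5.40, adjusted p = 0.00049), and higher in line 1 than in line 2 (4.31, adjusted p = 0.0012). The other 7 neighbours of RARG passed in no comparison. At 1 of 8, the share is near that of all tested genes (12.8% to 14.2%). Of the 8 measured genes nearest to ALDH1A3, 0 passed.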
